A study of Mus musculus with 4 samples.

Results

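Nfia, Nfib, Nfic and Nfix are the 4 genes of the nuclear factor I (NFI) family, and their H3K27ac peaks in mouse cortex are described here. The genes were chosen by name, and their peaks were every peak of the replicated list that lay at an annotated transcription start site (TSS) of the gene, elsewhere in the gene body or within 200 kb of either gene end. These 4 of 21755 protein-coding genes in GENCODE vM21 (basic set, mm10) held 276 of the 72027 replicated peaks. Of the 276 peaks, 11 lay at a promoter of the gene, 124 in the gene body and 141 in the flanks.

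The data are chromatin immunoprecipitation sequencing of histone H3 acetylated at lysine 27 (H3K27ac) in the left cerebral cortex. Promoters and enhancers in use carry this mark. The animals were adult females of the strain B6CASTF1/J, a hybrid of C57BL/6J and CAST/EiJ, at 2 months of age. All 4 samples belong to 1 group, made of pool I and pool J, each of 4 biosamples and each sequenced as 2 technical libraries. There is no second tissue, treatment or genotype, so each value is a description with no test between conditions.

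NFI proteins bind DNA as dimers, through a palindrome made of TTGGC and GCCAA, and either arm alone can also be bound. In the developing brain, Nfia and Nfib are known for the start of glial development and for the corpus callosum, and Nfix for the pacing of neural stem cells. Nfic is best known for the growth of tooth roots, and all 4 genes are transcribed in the adult brain. The tissue is whole cortex, so a peak cannot be assigned to neurons or glia, and fewer cells of a type with the mark cannot be told apart from less of the mark per cell.

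The stretches of 150 bases before the start clusters of each gene are shown first, because the promoters differed in how many CpG pairs they held and in whether they carried a peak. They are read 5′ to 3′ on the strand of the gene from GRCm38.p6, with each CG pair in capitals. Each ends at the base before the outermost annotated start of the cluster.
Nfia, chr4:97777458-97777607, plus strand: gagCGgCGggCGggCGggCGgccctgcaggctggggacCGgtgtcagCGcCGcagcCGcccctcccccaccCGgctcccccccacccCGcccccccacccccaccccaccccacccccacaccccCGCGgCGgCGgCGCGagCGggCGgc
Nfib, chr4:82505780-82505929, minus strand: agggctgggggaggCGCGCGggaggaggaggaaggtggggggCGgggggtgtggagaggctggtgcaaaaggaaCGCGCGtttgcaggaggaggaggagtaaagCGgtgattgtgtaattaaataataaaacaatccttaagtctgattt
Nfic, the start at 81431005, chr10:81431006-81431155, minus strand: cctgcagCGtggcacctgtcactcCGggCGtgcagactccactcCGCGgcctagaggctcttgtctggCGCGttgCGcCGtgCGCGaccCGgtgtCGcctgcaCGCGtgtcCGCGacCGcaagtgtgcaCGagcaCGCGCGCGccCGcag
Nfic, the outer start at 81455635, chr10:81455636-81455785, minus strand: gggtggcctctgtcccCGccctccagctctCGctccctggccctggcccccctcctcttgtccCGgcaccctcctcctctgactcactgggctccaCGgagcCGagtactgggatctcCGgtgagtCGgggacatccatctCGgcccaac
Nfic, the innermost starts near 81427187, chr10:81427188-81427337, minus strand: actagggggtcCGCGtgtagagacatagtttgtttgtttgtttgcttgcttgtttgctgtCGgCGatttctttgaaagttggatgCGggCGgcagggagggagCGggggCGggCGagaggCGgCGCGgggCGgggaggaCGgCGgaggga
Nfix, the outer starts, chr8:84800345-84800494, minus strand: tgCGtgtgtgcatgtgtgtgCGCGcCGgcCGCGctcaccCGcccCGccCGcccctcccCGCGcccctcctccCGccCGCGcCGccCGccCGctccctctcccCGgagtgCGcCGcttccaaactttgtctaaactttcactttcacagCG
Nfix, the inner starts, chr8:84774370-84774519, minus strand: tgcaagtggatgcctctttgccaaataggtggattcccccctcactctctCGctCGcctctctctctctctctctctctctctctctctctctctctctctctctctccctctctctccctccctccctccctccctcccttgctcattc
The Nfic stretches at 81431005 and 81427187 held 24 and 15 CG pairs and the outer one 8, and the outer one alone had no peak at its start. For Nfix, the outer stretch held 21 CG pairs and the inner one, mostly a run of CT repeats, held 2. The higher peak was at the inner starts. However, the start after the inner stretch, at 84774369, lay in a gap of 154 bp between peaks. The summit of the higher peak, at 84772868, was nearest to the other inner start, at 84773396, whose stretch is not shown. The Nfia stretch held 19 CG pairs and the Nfib stretch 8.

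All 4 genes had at least 1 promoter peak, defined as a peak that overlaps the 1000 bp on either side of a basic TSS. Of all protein-coding genes, 58.5% had one in the replicated list, 58.6% in the pseudoreplicated list, 58.2% in pool I and 55.2% in pool J, so most coding genes shared this feature. All 11 promoter peaks also had a match, by at least 1 bp, in the list of pool I alone and in that of pool J alone, as did 82.7% of the 19348 replicated peaks at a promoter. The number of promoter peaks was 2 for Nfia, 2 for Nfib, 3 for Nfic and 4 for Nfix.

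Promoter signal, the value that the authors' peak caller gave each peak, was highest at Nfic and lowest at Nfia. The highest Nfic promoter peak had a signal of 17.5 in the replicated list, 21.3 in pool I and 13.9 in pool J. That of Nfib had 16.1, 20.5 and 12.2 in the same lists. That of Nfix had 12.9, 16.0 and 10.8. For Nfia, the highest promoter peak had a signal of 8.06 in the replicated list, and the highest in pool I and pool J had 9.21 and 7.61. The order Nfic, Nfib, Nfix, Nfia was the same in the 3 lists. The spans between the pool values of Nfic, Nfib and Nfix overlapped, and only the span of Nfia lay below the other spans. Signal was mostly higher in pool I over the genome as well, so these spans also hold that shift between lists.

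**Figure D1:**
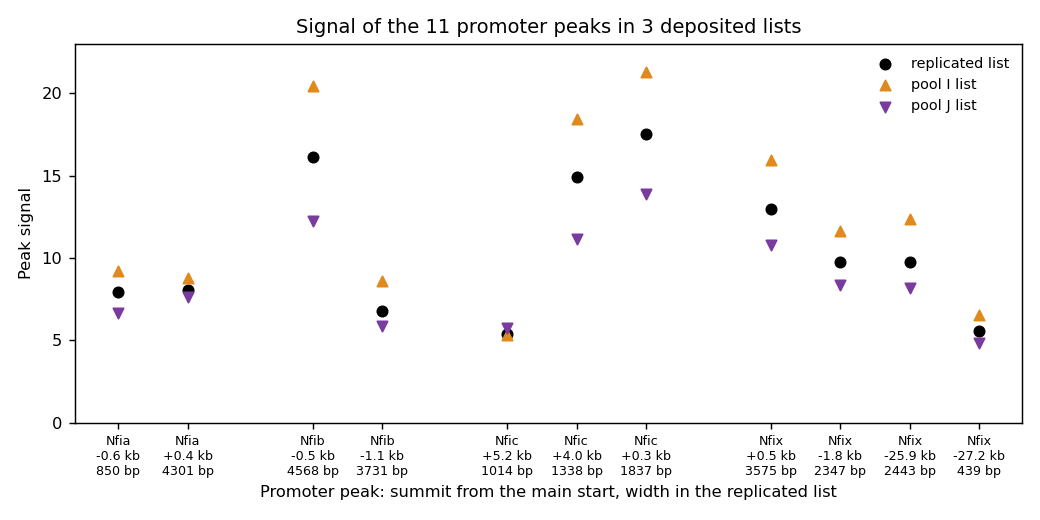
Signal (y axis, the peak caller's value) of the 11 NFI promoter peaks in the replicated list (black circles), the pool I list (orange) and the pool J list (purple), with the place of the summit relative to the main start and the peak width below each. Pool I lies above pool J at 10 of the 11 peaks, the exception being the weakest Nfic peak with 5.30 against 5.75.

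Ranked by their highest promoter peak among coding genes with a promoter peak, Nfic stood at percentile 93.0, Nfib at 90.1, Nfix at 78.2 and Nfia at 43.5. In pool I the percentiles were 93.7, 92.3, 80.3 and 40.4, and in pool J 90.8, 84.0, 75.8 and 47.7. The span between the pool percentiles of Nfix lay below that of Nfib, while the spans of Nfib and Nfic overlapped. The Nfia promoter was thus in the middle of the range by signal. By the width of the widest promoter peak the ranks changed places, with Nfib at percentile 97.9, Nfia at 97.5, Nfix at 95.5 and Nfic at 76.1. In pool J the order of the widths differed, with 3559 bp for Nfix, 2786 bp for Nfib, 2724 bp for Nfia and 1810 bp for Nfic, and in pool I they were 3583, 6637, 4389 and 2572 bp. The widest promoter peaks of Nfia and Nfib were thus over 1.5 times narrower in pool J than in the replicated list.

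Nfia (ENSMUSG00000028565.18, chr4:97772734-98118874, plus strand) had 5 basic starts and 2 promoter peaks. Its first 2 starts lay between the peaks and the other 3 under the downstream one. The upstream one, chr4:97776565-97777414, was 850 bp wide with a signal of 7.96, and the downstream one, chr4:97777650-97781950, was 4301 bp wide with a signal of 8.06. The 235 bp between them had a GC content of 86.8% and took in the whole Nfia stretch printed above. The part that GC content has in this gap was not tested.

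Nfib (ENSMUSG00000008575.17, chr4:82290173-82705750, minus strand) also had a pair of neighbouring promoter peaks. The peak over its starts, chr4:82501911-82506478, was 4568 bp wide and had the signal of 16.1. The second, chr4:82506634-82510364, was 3731 bp wide with a signal of 6.79, 8.63 in pool I and 5.89 in pool J, and also lay at a start of the non-coding gene Gm11266. A gap of 155 bp with a GC content of 82.6% separated them. Joining peaks less than 500 bp apart gave a stretch of 5 peaks and 16.0 kb here, the 58th widest of 48814 joined stretches in the genome. In the pool J list the stretch was 7.52 kb, with 4 peaks, and in pool I it was 21.1 kb.

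Nfic (ENSMUSG00000055053.18, chr10:81396186-81455635, minus strand) had its promoter peaks at 4 of 5 basic starts. The peak at the start at 81431005, chr10:81429729-81431565, was 1837 bp wide. The peak at the 3 starts near 81427187, chr10:81426339-81427676, had a signal of 14.9, with 18.4 in pool I and 11.1 in pool J. The third, chr10:81425230-81426243, lay just downstream with a signal of 5.36. The outermost start at 81455635, that of the transcript Nfic-207, had no peak within 1000 bp in the replicated list, which does not show that the mark is absent there. From 250 bases before to 50 after it, the ratio of observed to expected CpG pairs was 0.488, against 0.997 at the start at 81431005 and a median of 0.567 over 41220 starts.

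Nfix (ENSMUSG00000001911.16, chr8:84699876-84800344, minus strand) had peaks at all 4 of its basic starts. The inner starts at 84773396 and 84774369 had the peaks chr8:84770729-84774303, of 3575 bp and signal 12.9, and chr8:84774458-84776804, of 2347 bp and signal 9.76. At the outer starts, at 84800140 and 84800344, lay chr8:84797427-84799869, of 2443 bp and signal 9.76, and chr8:84800451-84800889, of 439 bp and signal 5.56. The ratio of observed to expected CpG pairs was 0.486 and 0.304 at the inner starts, and 1.30 and 1.19 at the outer ones. Among basic starts, the CpG-poor ones of Nfix thus had the higher peak within 1000 bp, and at Nfic the start with the lower CpG ratio had none. The summit of the higher Nfix peak, at 84772868, lay inside a RefSeq promoter window, chr8:84772826-84773125. The CpG ratio at that window was not measured.

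Gene body peaks were densest in Nfix. They numbered 33 for Nfia, 45 for Nfib, 10 for Nfic and 36 for Nfix, while gene lengths were 346141, 415578, 59450 and 100469 bp. In pool I alone the counts were 43, 38, 12 and 33, and in pool J alone 14, 22, 9 and 48, so those of Nfia and Nfib fell with pool J alone and that of Nfix did not. Per 100 kb of gene the replicated list came to 9.53, 10.8, 16.8 and 35.8 peaks. Against coding genes within 25% of its own length, Nfix ranked 6th of 1529 in body peaks, between Abhd2 with 39 and 3110082I17Rik with 35, where the median gene had 2. Nfib ranked 26th of 323, between Prkca with 49 and Itpr1 with 44. Nfia ranked 40th of 402, tied with 4 other genes, between Ppp3ca with 34 and Atxn1 with 32. Nfic ranked 102nd of 2126, tied with 25 other genes, above Acss1 with 9.

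**Figure D2:**
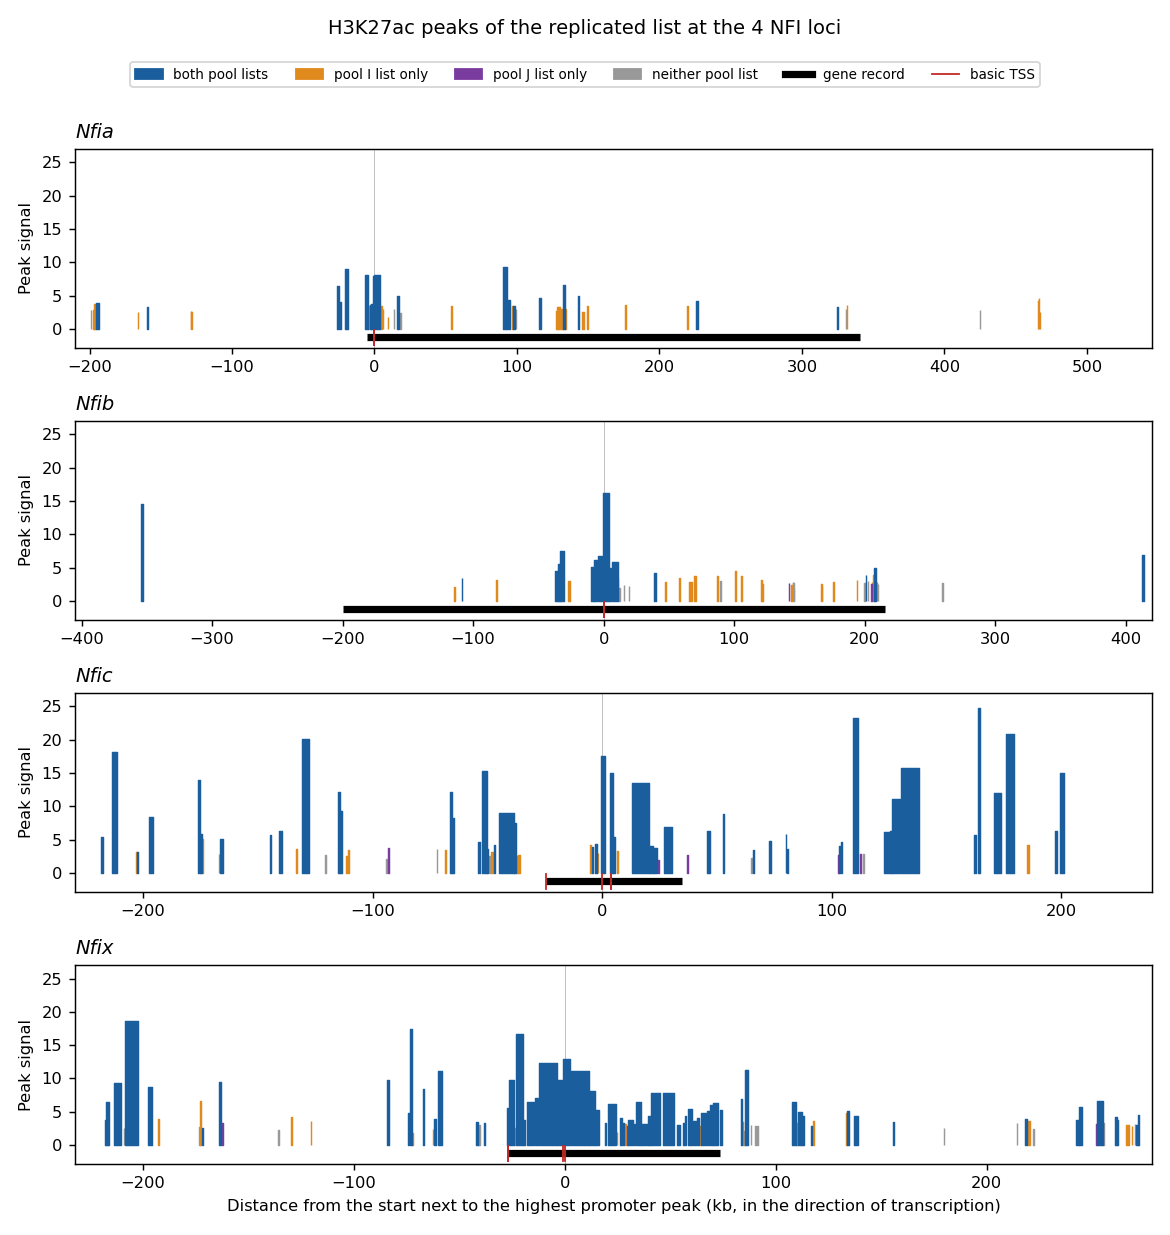
Peaks of the replicated list at the 4 NFI loci, drawn by distance from the start next to the highest promoter peak (x axis, kb, in the direction of transcription) and by signal (y axis), with bars as wide as the peaks. Blue marks a match in both pool lists, orange in pool I only, purple in pool J only and grey in neither; the black bar is the gene and red ticks are basic starts. Nfix is filled with blue peaks along its length, while those of Nfia and Nfib stand near the starts and at a few inner sites.

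The share of the gene under peaks was highest at Nfix. Peaks covered 80800 bp of the 100469 bp of Nfix, or 80.4%, the highest share among the 5000 coding genes of 50 kb or more. Zeb2 followed with 73.4%, and the median of these genes was 1.95% with a 95th percentile of 17.9%. Nfix also ranked first in the list of pool I with 83.2%, in that of pool J with 65.3% and in the pseudoreplicated list of both pools with 81.8%. With only peaks of −log10 q of at least 5 it was first with 70.1%, ahead of Zeb2 with 69.2%. The longest stretch of Nfix free of peaks was 2.72 kb in the replicated list, 1.59 kb in pool I and 3.18 kb in pool J. Coverage was chosen as a measure after the peaks had been seen.

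**Figure D3:**
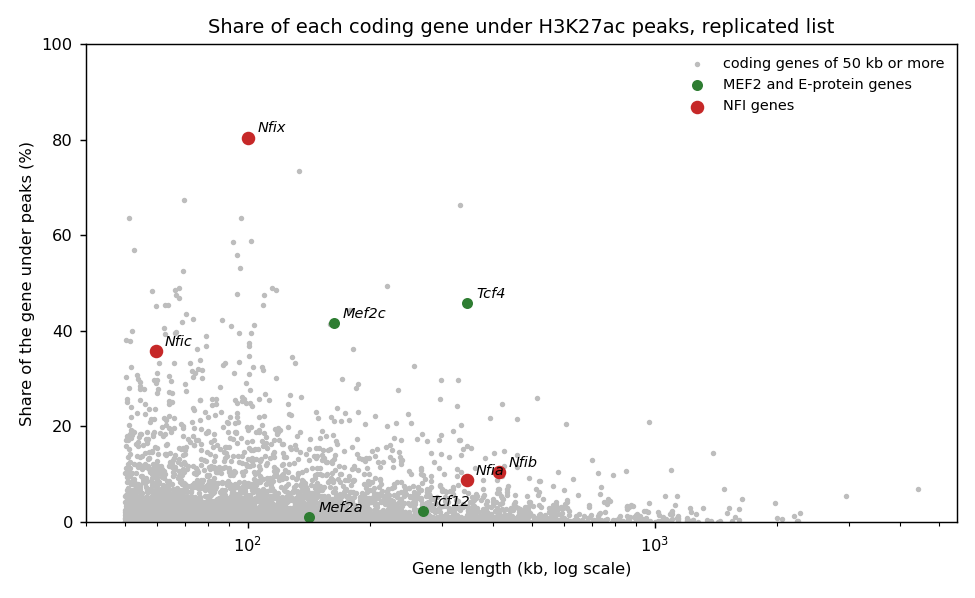
Share of each coding gene of 50 kb or more that lies under replicated peaks (y axis, %) against gene length (x axis, kb, log scale). NFI genes are red and the compared MEF2 and E-protein genes of this length green; Mef2b, Mef2d and Tcf3 are shorter and not drawn. Nfix, at 80.4%, is the highest point, and Nfia and Nfib lie at 8.81% and 10.4%.

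Nfic had 35.8% of its length under peaks and ranked 52nd of the 5000, with 41.6% in pool I and 31.7% in pool J. Nfib had 10.4%, with 12.3% and 6.0% in the pools, and ranked 571st. Nfia had 8.81%, with 13.1% and 4.44%, and ranked 681st. In pool I the last pair changed order, so Nfia and Nfib did not differ beyond the spread between pools. Their longest stretches without a peak in the replicated list were 97.6 kb in Nfia and 85.6 kb in Nfib.

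Within Nfix, 34 of the 36 body peaks lay away from the promoters of all genes, as placed by basic starts. Starts of Nfix outside the basic set lay in chr8:84706367-84708614 and chr8:84712909-84715047, which are among these peaks. A RefSeq promoter window of Nfix lay in another, chr8:84777081-84785658. Of these 34, 29 (85.3%) were matched in both pool lists, against 45.2% of all peaks in coding gene bodies away from promoters. At least 2 kb wide were 12 of the 34 and at least 4 kb were 3, while 5.84% and 0.812% of such peaks genome-wide were. By the place of the summit, intron 2 of its longest transcript, Nfix-202, held 16 of the peaks and intron 1 held 6. The highest body peak, chr8:84793204-84796623 in intron 1, had a signal of 16.7, with 19.6 in pool I and 13.5 in pool J. In each of these lists it stood above every Nfix promoter peak, and its summit lay 6400 bp from the start at 84800140. The widest, chr8:84761994-84770605 in intron 2 and chr8:84777081-84785658 in intron 1, measured 8612 and 8578 bp with signals of 11.1 and 12.4. In pool I the matched peaks measured 13617 and 5350 bp with signals of 15.3 and 14.3, and in pool J 7213 and 3412 bp with 6.57 and 6.29. Both lie on either side of the inner promoter, and with peaks less than 500 bp apart joined, 8 peaks formed a stretch of 34.2 kb (chr8:84757014-84791217), the 4th widest of 48814. In pool I the stretch was also 34.2 kb and 4th widest, while in pool J it was 16.4 kb and 13th of 35188. Pool J held more pieces, with 52 promoter and body peaks in Nfix against 37 in pool I.

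A pair of the Nfix body peaks lay at promoters of other coding genes. The peak at Lyl1, a transcription factor gene of blood cell development, was 2146 bp wide with a signal of 6.36. The peak at G430095P16Rik was 5495 bp wide with a signal of 7.86. These peaks lie inside the Nfix record and at the promoter of another gene, so they cannot be assigned to 1 of them.

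Nfic had its widest body peak in intron 2 of Nfic-207, chr10:81410578-81418189, with 7612 bp. Its signal was 13.5 in the replicated list, 17.8 in pool I and 5.69 in pool J, the largest ratio between pools among the Nfic promoter and body peaks. The peak was nearly as wide in pool J, with 7463 bp, as in pool I, with 7666 bp. The next by signal, chr10:81400376-81403862 in intron 9, had 6.96 and lay at the start of Nfic-206, a transcript outside the basic set. The third, chr10:81433175-81433905 in intron 1, had a signal of 4.43. Of the 10 Nfic body peaks, 6 were matched in both pools. Away from the promoters of all genes it was 4 of 8 (50%), against 45.2% of such peaks genome-wide.

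Nfia body peaks gathered in intron 2 of Nfia-202, the longest transcript, with 23 of 33. The highest, chr4:97867958-97870581, lay 91393 bp downstream of the main start, was 2624 bp wide and had a signal of 9.29, with 10.7 in pool I and 7.86 in pool J. In the replicated list and in both pools it was higher than the highest Nfia promoter peak. The next, chr4:97771411-97773236 with a signal of 8.14, lay at a start of Nfia-208, and the third, chr4:97910139-97911728 with 6.55, at a start of Nfia-206, both outside the basic set. Of the 33, 12 were matched in both pools (36.4%), 17 in pool I only and 4 in neither, and the median signal was 3.37. Over all peaks in coding gene bodies away from promoters, 45.2% were matched in both and the median signal was 3.27.

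In the replicated list Nfib had the most body peaks of the 4 genes, with medians of 2.99 for signal and 377 bp for width. In pool I Nfia had the most, with 43 against 38, and in pool J and with −log10 q of at least 5 Nfix had the most, with 48 against 22 and 23 against 15. Of the 45, 11 were matched in both pools (24.4%), 20 in pool I only, 2 in pool J only and 12 in neither. Away from the promoters of all genes it was 11 of 44 (25%), against 45.2% of such peaks genome-wide. The highest, chr4:82535850-82539234, lay 31172 bp upstream of the main start within the gene record but outside the basic transcripts. It was 3385 bp wide with a signal of 7.54, 9.13 in pool I and 6.31 in pool J. It was followed by chr4:82510896-82512965 with 6.16, and by chr4:82494975-82499575, 4601 bp wide with its summit in coding exon 2, with 5.90. In pool I these had signals of 8.19 and 6.24, and in pool J only 2.90 and 3.61, with widths of 878 and 1603 bp. Intron 2 held 16 peaks, of which 1 was matched in both pools, with a highest signal of 4.47. The Nfib record reaches to 82705750, the start of Nfib-212, which had no peak.

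Flank peaks numbered 60 for Nfic and 62 for Nfix, and 16 for Nfia and 3 for Nfib. In pool J alone they were 49, 36, 7 and 2, and in pool I alone 53, 53, 16 and 3. The Nfic and Nfix loci also had more neighbouring genes: 31 coding genes overlapped the locus of Nfic outside Nfic itself, 22 that of Nfix, 3 that of Nfib and 1 that of Nfia. With a promoter peak were 25 of the 31, 20 of the 22, 1 of the 3 and 1 of the 1, against 58.5% of all coding genes. At Nfic, 33 of the 60 flank peaks lay at promoters of other genes, 21 in bodies of other genes and 6 between genes. At Nfix the split was 25, 28 and 9. Of all 72027 replicated peaks, 19348 lay at a promoter. The Nfic and Nfix loci thus hold more neighbours with a promoter peak, and Nfia and Nfib have too few coding neighbours for a share.

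The highest flank peak of Nfic, at the promoters shared by Apba3 and Mrpl54, had a signal of 24.8, and the widest, at Pip5k1c, a kinase gene of phosphoinositide synthesis, measured 8012 bp. At Nfix, the promoter peak of Junb, an AP-1 transcription factor gene, had 18.7 and a width of 5861 bp, and that of Calr, which codes for the chaperone calreticulin, had 17.4. Dand5 and Syce2 were the coding neighbours of Nfix with no promoter peak. At Nfib, Zdhhc21, a palmitoyltransferase gene, had a promoter peak of 14.5, and Cer1 and Frem1 had none. At Nfia, the promoter peak of the non-coding gene Gm12676, with its summit at −20206 bp from the main start, had 8.96, with 11.5 in pool I and 7.92 in pool J, above the promoter peak of Nfia itself in each list. The only coding neighbour of Nfia, E130114P18Rik, had 3.91.

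Away from promoters of any gene, the highest flank peak of Nfia was chr4:97751204-97752652, with its summit at −25750 bp from the main start, in the body of E130114P18Rik. Its signal was 6.37, with 6.69 in pool I and 6.26 in pool J. That of Nfib, chr4:82092000-82093381, lay in the body of Gm5860 with 6.95, 9.60 in pool I and 4.55 in pool J. That of Nfic, chr10:81642292-81644613 in the body of Ankrd24, had 18.1, with 22.7 in pool I and 13.4 in pool J. It stood above the highest Nfic promoter peak in the replicated list and in pool I, but below it in pool J, where that peak had 13.9. That of Nfix, chr8:84983641-84987146 between genes, had 9.34 in the replicated list but 17.1 in pool I and 11.3 in pool J, and its nearest coding start was that of Hook2. The Nfic and Nfix peaks lay at −187755 and −185694 bp from the nearest start of the gene, and proximity names a neighbour and not a target.

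Of all 276 locus peaks, 149 were matched in both pool lists, and 56% of all replicated peaks were. By locus the share was 65.8% for Nfic (95% exact Clopper-Pearson interval 53.7 to 76.5%, n = 73 peaks) and 65.7% for Nfix (55.6 to 74.8%, n = 102). It was 37.3% for Nfia (24.1 to 51.9%, n = 51) and 30% for Nfib (17.9 to 44.6%, n = 50). The intervals of Nfia and Nfib lie below 56% and end below the start of the intervals of Nfic and Nfix. All cover counting error over peaks only, and neighbouring peaks are not independent. The shares also mix peak classes: genome-wide, 82.7% of peaks at promoters were matched and 45.2% of those in coding gene bodies away from promoters. Promoters of other genes held 33 flank peaks at Nfic and 25 at Nfix, but 2 at Nfia and 1 at Nfib. The part that this mix has in the difference was not tested. With only peaks of −log10 q of at least 5 the shares were 80.0% for Nfia, 73.7% for Nfib, 88.5% for Nfic and 88.5% for Nfix. Each share was thus higher among the stronger peaks. The share of all replicated peaks under this filter is not given here, so these shares are not set against the genome.

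At peaks matched in both pools, the deposited signal was mostly higher in pool I. The normalization of the signal is unknown, so a shift between the lists need not be one in the mark, and the NFI peaks are set beside all peaks. The median log2 ratio of pool I to pool J was 0.45 over 14 Nfia promoter and body peaks, 0.55 over 13 of Nfib, 0.68 over 9 of Nfic and 0.57 over 35 of Nfix. Over all 40346 matched peaks of the genome it was 0.51, with 0.02 to 1.01 between the 10th and 90th percentile, so the NFI medians lay well within the general shift between lists. Single peaks were more spread than the medians. Outside that range lay 1 of the 14 Nfia peaks, 6 of the 13 of Nfib, 2 of the 9 of Nfic and 12 of the 35 of Nfix. Pool J had the higher signal at 3 Nfib, 1 Nfic and 4 Nfix peaks and at none of Nfia.

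**Figure D4:**
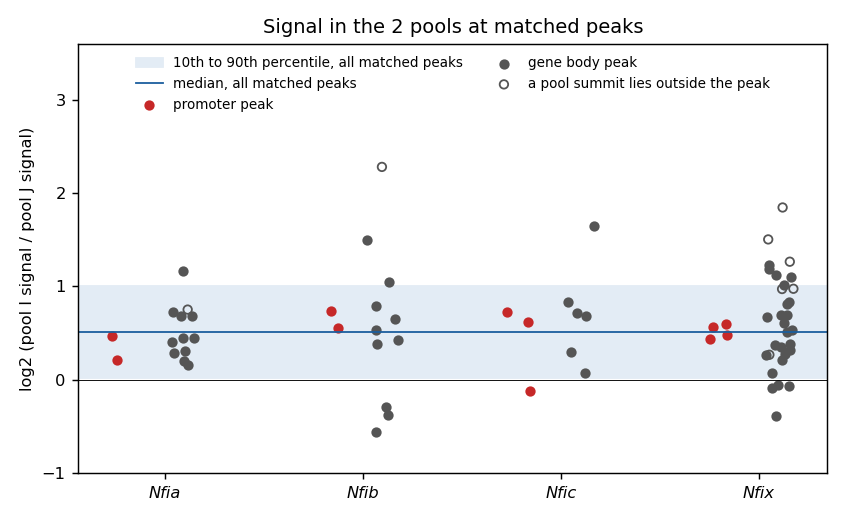
Log2 ratio of pool I to pool J signal (y axis) at the promoter (red) and body (grey) peaks of each NFI gene matched in both lists, with the median (line) and the 10th to 90th percentile (band) of all matched peaks. Open circles are peaks for which the summit of the matched pool peak lies outside the replicated peak, such as the Nfib peak at 2.28; most points lie in the band from 0.02 to 1.01.

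In some pairs the summit of the matched pool peak lay outside the replicated peak, as where 1 wide pool peak met several replicated peaks, so the signals came from different summits. This was so for 6 of the 35 Nfix pairs, 1 of the Nfia pairs, 1 of the Nfib pairs and none of the Nfic pairs. Without them the medians were 0.44 for Nfia, 0.54 for Nfib, 0.68 for Nfic and 0.51 for Nfix, and 0.50 over the genome.

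The NFI palindrome itself appeared in the tallest Nfia body peak. The reference sequence within 100 bp of its summit is shown because it holds, in capitals, TTGGC and GCCAA spaced by 5 bases, 39 bp from the summit.
Nfia intron 2, chr4:97869127-97869327, plus strand: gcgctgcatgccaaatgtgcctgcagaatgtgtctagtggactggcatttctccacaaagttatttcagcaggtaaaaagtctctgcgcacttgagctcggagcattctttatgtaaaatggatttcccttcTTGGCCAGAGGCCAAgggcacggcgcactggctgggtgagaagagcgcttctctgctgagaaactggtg
Of 52679 replicated peaks away from any promoter, 7 (0.0133%) had this palindrome within 100 bp of the summit, on either strand. It was in 1 of the 199 such peaks at the NFI loci. The related palindrome, TGGCA and TGCCA spaced by 3 bases, was in none of the 199 and in 0.0569% of all. A match is a run of letters and not a bound site.

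A single arm was counted only as TTGGCA, the arm TTGGC followed by an A, which is narrower than the arm. The palindrome in capitals above does not itself hold TTGGCA. These letters were found in 21 of the 199 peaks (10.6%), and in 11.5% of all peaks away from promoters. In the pool I list the locus share was 18.8%, against 11.8% of all its peaks, and in the pool J list 9.16%, against 11.6%, so which of them was higher depended on the list. In the replicated list, Nfia body peaks held TTGGCA in 8 of 33 (24.2%, exact interval 11.1 to 42.3%), Nfib in 4 of 44, Nfix in 3 of 34 and Nfic in 0 of 8. The Nfia interval takes in the genome-wide share. The letters of other factors were counted in the replicated list as well. CAGATG, bound by basic helix-loop-helix factors, was in 36 of 199 (18.1%) against 17.2% of all peaks away from promoters. TGANTCA, bound by AP-1, was in 8 (4.02%) against 5.92%, and ATGCAAAT, bound by POU factors, in 3 (1.51%) against 1.12%. TGACGTCA, bound by CREB, was in none, against 0.142%.

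Genes linked to NFI proteins were taken as a list of 18, as partners, upstream regulators or reported targets in neural tissue. Of these, 16 (88.9%) had a promoter peak, against 58.5% of all coding genes, with 16 in pool I and 15 in pool J. Their median percentile of promoter signal was 24.0, below the middle of coding genes with a promoter peak. Highest were Hes1, an effector of Notch signalling, and Cdh2, which codes for N-cadherin, both with 14.4 in the replicated list, then Mmd2, a target of NFIA in gliogenesis, with 11.5. Sox9, a glial transcription factor gene upstream of Nfia, had 6.0, with 6.75 in pool I and 5.87 in pool J. Slc1a3, which codes for the astrocyte glutamate transporter GLAST, had 7.03. Gfap, the intermediate filament gene of astrocytes, and Gabra6, a receptor gene of cerebellar granule neurons, had no promoter peak. S100b had 1.83 and no promoter peak in pool J.

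The MEF2 and E-protein genes, small families of transcription factor genes active in neurons, were measured the same way. All 4 MEF2 genes and all 3 E-protein genes had a promoter peak, and the median percentile of the highest promoter signal was 88.8 and 92.9, against 84.2 for the NFI genes. The median share under peaks was 23.1% for the NFI genes, 22.5% for the MEF2 genes and 6.22% for the E-protein genes. In each family the share differed widely between members, from 1.06% at Mef2a to 50.1% at Mef2d, and from 2.32% at Tcf12 to 45.8% at Tcf4. The NFI genes spread from 8.81% at Nfia to 80.4% at Nfix, and no test of 4 genes against 4 or 3 was made.

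The tissue label was checked against marker genes. All 4 markers of excitatory neurons had a promoter peak, with signals from 10.8 to 14.0. Of all coding genes, 58.5% had one. All 3 of inhibitory neurons had one, but with only 3.07 to 3.87, and 4 of 5 of astrocytes did, with 3.67 to 13.8. All 3 of microglia had one, with 2.44 to 4.09, and both of endothelium did, with 4.17 and 16.7. None of 5 genes of other tissues had one. Gfap was the astrocyte marker without one. The list of pool I had 69834 peaks and that of pool J 49839, and the sources used here do not give the number of reads behind them.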

How the data were processed

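H3K27ac was measured in 4 libraries of 1 group, as pool I (replicate 1) and pool J (replicate 2). The authors deposited 4 narrowPeak lists on mm10: replicated and pseudoreplicated peaks of both pools, and pseudoreplicated peaks of each pool, in which its 2 libraries share 1 alignment, per the file descriptions. The sources used here do not name the aligner or the peak caller or give the read depth. The signal the authors deposited for each peak has no stated normalization, and the −log10 q in the deposited lists was used only as a filter. Values are thus ranked within a list, ratios between pools are read only beside those of all peaks, and with 1 list per pool values carry no error.

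Peaks on 19 autosomes and X were placed with GENCODE vM21 (basic set unless stated) on GRCm38.p6, with 1-based coordinates. Reads of the CAST/EiJ copy may align less well, and absence from a list does not show absence of the mark. A pool value is that of the pool peak with the largest overlap. Percentiles count ties as one part below and one above. Python 3.11.15, numpy 2.4.6, scipy 1.17.1 and matplotlib 3.10.9 were used, and placement and motif search were tested on simulated data. Named single peaks were all promoter peaks of a member and its 3 highest body peaks, with the highest of the 3 non-promoter flank peaks and promoter peaks of neighbouring genes. No test was run. Other lists, windows, flanks, overlaps and a q filter were tried as alternatives. The genes and lists were chosen with earlier results of these data known, and the coverage measure, joined stretches, the full set of starts, body peaks away from all promoters and the limit to pool summits inside a peak were chosen after seeing the data. A marker list and a gene of like length are not reported here.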

Additional observations from a re-analysis of the deposited data

How the results depend on the processing

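Of 147 recomputed values, 115 moved by less than 1.5 times for counts, or stayed within the spread or interval of their value, and 32 moved more. For percentiles and covered shares the spread was the standard deviation of the same 2 pool values. It is thus no independent limit when 1 pool is left out. The covered share of Nfia, 8.81%, counted as not moved at 4.44% in pool J alone and at 5.20% with −log10 q of at least 5. The NFI genes kept a promoter peak under every alternative run. The full set of starts, chosen after seeing the data, gave 6, 4, 5 and 7 promoter peaks (Nfia, Nfib, Nfic, Nfix), a window of 500 bp gave 1 for Nfib, and one of 2500 bp gave 6 for Nfic. A −log10 q of at least 5 left 11, 15 and 23 body peaks for Nfia, Nfib and Nfix, 7 and 34 flank peaks for Nfia and Nfix, and the shares in both pools of 80.0, 73.7, 88.5 and 88.5%. Joining peaks closer than 500 bp left 6 Nfic and 12 Nfix body peaks. A flank of 100 kb left 4, 1, 39 and 31 flank peaks. A match over at least 50% of both peaks lowered the Nfix share in both pools to 42.2%.

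With 1 pool left out, body peaks ranged from 14 (pool J alone) to 43 (pool I alone) for Nfia and from 22 to 38 for Nfib, and flank peaks from 7 to 16 for Nfia and from 36 to 53 for Nfix. The promoter percentile ranged from 84.0 to 92.3 for Nfib and from 90.8 to 93.7 for Nfic, and the covered share of Nfix from 65.3 to 83.2%, the lower value in each case being pool J alone. The share of locus peaks with TTGGCA ranged from 9.16% in pool J to 18.8% in pool I, against 11.6 and 11.8% of all peaks. It was 6.03% within 50 bp of the summit and 23.6% within 200 bp, against 5.83 and 22.1% of all peaks. The cause of these shifts was not tested. The unknown depth limits what the lists can show. No paired analysis was possible because there is 1 group.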

Other observations

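RefSeq gives Nfia a promoter window 195666 bp from the nearest basic start, and it overlapped a replicated peak of 300 bp with a signal of 3.17 that was matched in pool I only. That peak lay beside the promoter peak of E130114P18Rik, 2577 bp wide with a signal of 3.91. RefSeq promoter windows were found for 3 of the 4 NFI genes.

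Including starts outside the basic set, 7 of 8 annotated starts of Nfia had a peak within 1000 bp, 7 of 8 of Nfib, 6 of 7 of Nfic and 8 of 8 of Nfix. Pool lists held further peaks at the NFI genes with no match in the replicated list. These were 17 of 45 promoter and body peaks of Nfia in pool I, 11 of 40 of Nfib, 3 of 15 of Nfic and 1 of 37 of Nfix, with a highest signal of 4.52, at Nfia. In pool J they were 1 of 16, 1 of 24, 1 of 12 and 0 of 52.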
